A study of Homo sapiens with 12 samples.

Results

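The genes of cholesterol and fatty acid synthesis were followed by RNA sequencing in a pair of human cancer cell lines exposed to hydrogen peroxide (H2O2). The set was a list of 31 genes of the sterol regulatory element binding protein (SREBP) pathway, matched by gene symbol. It was chosen with earlier results of these data known. Of the listed genes, 31 of 31 were found among the 23686 symbols of the expression table. They fall into a sterol arm of 18 enzymes, a fatty acid arm of 7 enzymes and 6 regulators or carriers. HCT116, from a colon cancer, and MDA-MB-231, from a breast cancer, each gave 3 groups of 2 libraries: H2O2 (100 µM, 8 h) together with anti-Hsp60N, an antibody named for Hsp60; the same H2O2 together with control IgG; and control IgG without H2O2. No group had anti-Hsp60N without H2O2. HCT116 grew in McCoy's medium and MDA-MB-231 in DMEM, each with fetal bovine serum, so line and medium differ together. Each line stands for 1 tumour of origin.

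Mammalian cells make cholesterol from acetyl-CoA by way of mevalonate, squalene and lanosterol, and make fatty acids from the same acetyl-CoA by way of malonyl-CoA and palmitate. The SREBPs are transcription factors held in the endoplasmic reticulum; when membrane sterols are low, the escort protein SCAP carries them to the Golgi, where they are cut and released to the nucleus. The INSIG proteins keep SCAP in the endoplasmic reticulum when sterols are plentiful. Rapidly dividing tumour cells commonly run both arms, for membranes and for prenylated proteins.

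Values are TPM (a unit scaled to gene length and to a fixed library total), so genes can be compared with each other, but the sequencing depth is unknown. A library held 12411 to 12653 genes at 1 TPM or more, and pairs of libraries of a group correlated at 0.9937 to 0.9956. Tests used limma on log2(TPM + 1) over 13956 genes that had at least 1 TPM in at least 2 of the 12 libraries. All 31 members passed this filter, with single values between 7.17 and 336.9 TPM. A gene is called higher or lower where the p-value adjusted over all 13956 genes (Benjamini-Hochberg) is under 0.05, and fold changes are log2 differences of TPM + 1, which understate changes of low genes. The labels do not tell whether a group's libraries are separate cultures, and p-values measure the spread between these libraries, which may be technical. With 2 libraries a group, a lack of overlap between groups is a description and not a test. The share of all genes without overlap is not given. In bulk RNA, fewer cells expressing a gene and less RNA per cell cannot be told apart. The label of each line was set against markers. Of 10 colon epithelial markers, 6 averaged at least 1 TPM over the HCT116 libraries (EPCAM, CDH1, KRT8, KRT18, KRT20 and CDX2), while CDX1, VIL1, LGALS4 and CDH17 did not. In MDA-MB-231, 3 of 10 did (EPCAM, KRT8 and KRT18). Of 7 mesenchymal markers, 6 did so in each line, SPARC being the exception, and their summed level was 356 to 393 TPM over HCT116 libraries and 3445 to 3941 TPM over those of MDA-MB-231. Of 7 markers of blood, endothelial or fibroblast cells, CD68 and COL1A1 averaged at least 1 TPM in HCT116, and these and PECAM1 did so in MDA-MB-231; their summed level was 26.2 to 31.6 TPM over HCT116 libraries and 191 to 211 TPM over those of MDA-MB-231, with PTPRC and CD3E at or near 0 in both. Marker sums also moved with treatment: in HCT116 the colon epithelial sum was 4213 and 4335 TPM under anti-Hsp60N with H2O2, 4341 and 4288 TPM under IgG with H2O2 and 4419 and 4556 TPM under IgG, and in MDA-MB-231 the mesenchymal sum was 3445 and 3493, 3479.8 and 3518, and 3777 and 3941 TPM in the same order of groups. Their part in the results below was not tested.

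**Figure D1:**
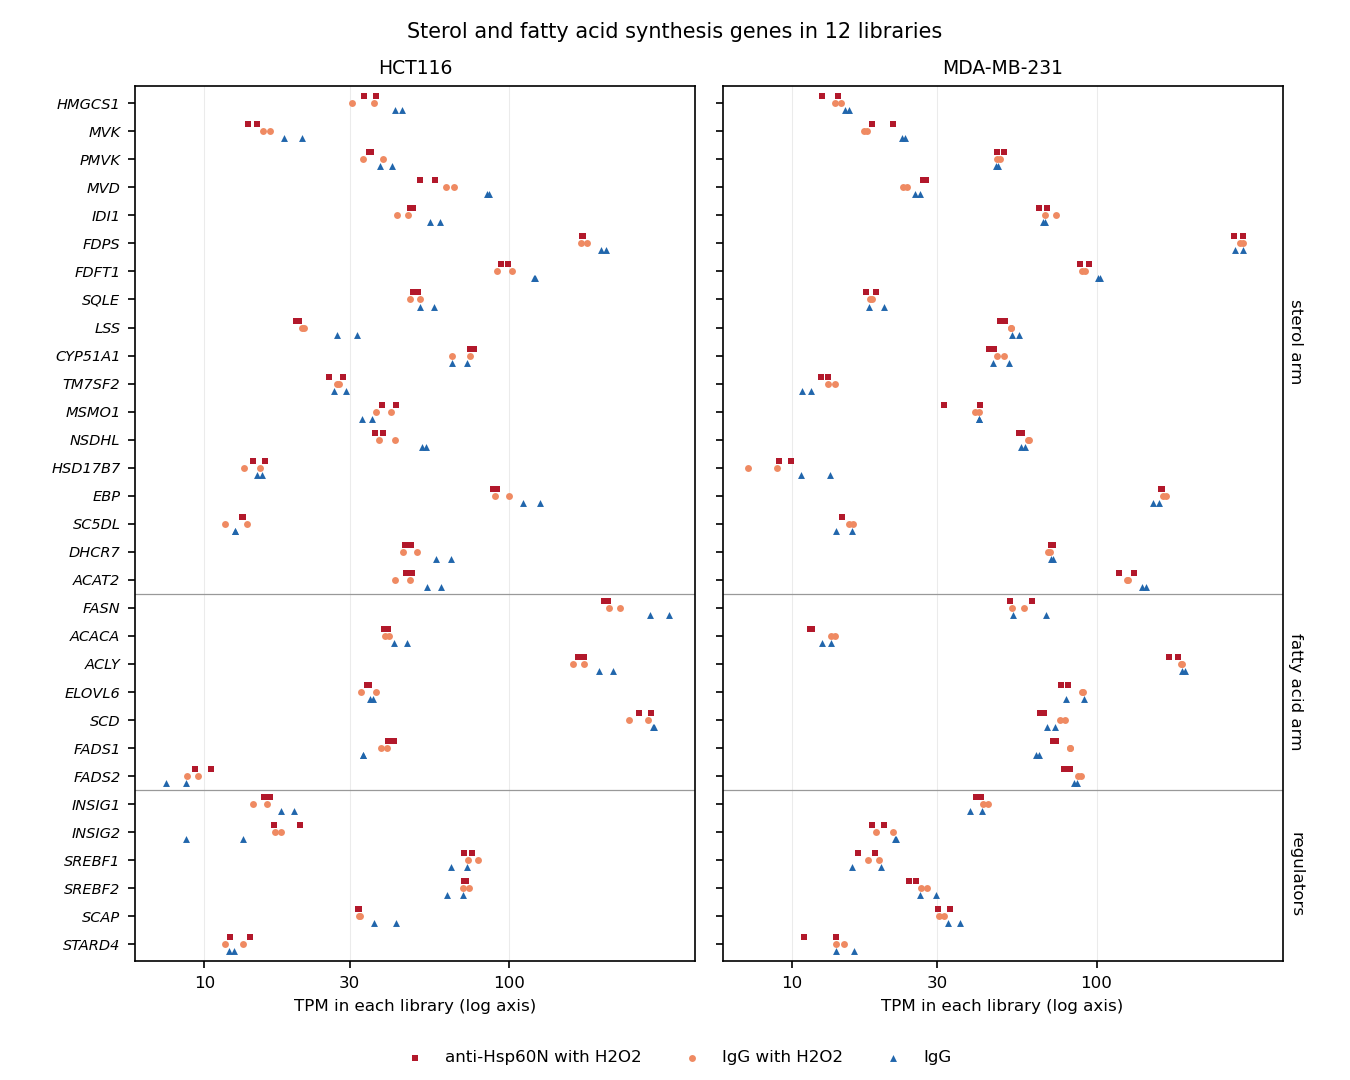
Level of each of the 31 genes in each of the 12 libraries (TPM, log axis), with HCT116 on the left and MDA-MB-231 on the right; each point is 1 library, red squares are anti-Hsp60N with H2O2, orange circles IgG with H2O2 and blue triangles IgG. In HCT116 the blue triangles of MVD, LSS, NSDHL and FASN lie to the right of both H2O2 groups, while those of FADS1 and INSIG2 lie to the left.

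The first question was what H2O2 did to the pathway. In HCT116, with IgG and H2O2 against IgG, most of the sterol arm was lower: 11 of 18 enzymes fell, 0 rose and 7 were not called. In fatty acid synthesis FASN and ACLY fell, and the regulators INSIG1 and SCAP also fell. FADS1 and INSIG2 rose. Over the 31 genes, 15 were lower (48.4%) and 2 were higher (6.45%), against 17.5% lower and 15.4% higher among all genes tested. Because the set was chosen with earlier results known, these shares are set side by side and not tested. The median log2 fold change was -0.29 in the sterol arm and -0.14 in the fatty acid arm, beside -0.01 over all genes. The log2 fold changes of the 15 lower genes lay between -0.49 and -0.21.

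Within the sterol arm, calls covered early and late steps. MVD, the decarboxylase that makes isopentenyl pyrophosphate, had 66.2 and 62.4 TPM under IgG with H2O2, against 86 and 84.6 TPM under IgG. LSS, which closes squalene epoxide into lanosterol, had 21.2 and 21 TPM under IgG with H2O2, against 27.3 and 31.6 TPM under IgG. For both genes every H2O2 library lay below every IgG library. The log2 fold change was -0.40 with an SE of 0.0607 and a limma adjusted p of 0.000757 for MVD, and -0.46 with an SE of 0.0673 and a limma adjusted p of 0.00062 for LSS. NSDHL, a dehydrogenase that helps strip methyl groups from lanosterol, had 37.6 and 42.3 TPM under IgG with H2O2, against 53.4 and 51.9 TPM under IgG. FDFT1, squalene synthase, the enzyme that commits farnesyl units to sterols, had 91.4 and 102 TPM under IgG with H2O2, against 122 and 121 TPM under IgG. Again the groups did not overlap. NSDHL changed by -0.39 with an SE of 0.0609 and a limma adjusted p of 0.000893, and FDFT1 by -0.33 with an SE of 0.0593 and a limma adjusted p of 0.00201. IDI1, which interconverts the isoprene building blocks, had 46.6 and 43 TPM under IgG with H2O2, against 59.6 and 55 TPM under IgG. DHCR7, the reductase that finishes cholesterol, had 44.9 and 49.8 TPM under IgG with H2O2, against 57.5 and 64.7 TPM under IgG. Neither gene overlapped between groups, and the log2 fold change was -0.35 with an SE of 0.0635 and a limma adjusted p of 0.0022 for IDI1, and -0.36 with an SE of 0.0657 and a limma adjusted p of 0.00221 for DHCR7. The remaining called enzymes of this arm were HMGCS1 (-0.38), which makes HMG-CoA; MVK (-0.27), which phosphorylates mevalonate; FDPS (-0.21), which makes farnesyl pyrophosphate; EBP (-0.31), a sterol isomerase; and ACAT2 (-0.34), the cytosolic thiolase that makes acetoacetyl-CoA.

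The 7 uncalled sterol enzymes had log2 fold changes between -0.14 and 0.18. PMVK, the kinase after MVK, differed by -0.14, and SQLE, which adds oxygen to squalene, by -0.13. The steps just after lanosterol stood at 0.02 for CYP51A1, the demethylase, -0.02 for TM7SF2, a sterol reductase, and 0.18 for MSMO1, the methyl oxidase that works beside NSDHL. HSD17B7, the keto reductase of the same complex, differed by -0.08, and SC5DL, a late desaturase, by 0.01. HSD17B7 has a near-identical pseudogene, so how its reads were shared between copies is uncertain. MSMO1 had 36.7 and 41.1 TPM under IgG with H2O2, against 32.9 and 35.5 TPM under IgG and its groups did not overlap, but it was not called (limma adjusted p = 0.233). The 95% interval of its log2 fold change was -0.06 to 0.42, while that of NSDHL, its partner in removing methyl groups, was -0.53 to -0.26.

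In the fatty acid arm, FASN, the synthase that builds palmitate, stood with SCD at the top of the pathway's levels in HCT116, at 314 ± 32.9 TPM and 299 ± 1.05 TPM under IgG (SD, n = 2), a gap within the spread of FASN. FASN had 232 and 213 TPM under IgG with H2O2, against 290.3 and 337 TPM under IgG, and the groups did not overlap. The log2 fold change was -0.49 with an SE of 0.116 and a limma adjusted p of 0.00874. ACLY, which makes cytosolic acetyl-CoA from citrate and so feeds both arms, had 163 and 177 TPM under IgG with H2O2, against 198 and 219.7 TPM under IgG. Its groups stood apart as well, with a log2 fold change of -0.29 with an SE of 0.0606 and a limma adjusted p of 0.00427. ACACA, which makes malonyl-CoA, differed by -0.14 (limma adjusted p = 0.12), SCD, which adds a double bond to saturated chains, by -0.17 (limma adjusted p = 0.0848), and ELOVL6, which lengthens palmitate, by -0.03; none of these was called. FADS1, a desaturase of polyunsaturated fatty acids, had 37.9 and 39.9 TPM under IgG with H2O2, against 33.1 and 33.2 TPM under IgG. Both H2O2 libraries lay above both IgG libraries, and the log2 fold change was 0.22 with an SE of 0.0478 and a limma adjusted p of 0.0053. FADS2, the desaturase that acts before FADS1, had 9.55 and 8.79 TPM under IgG with H2O2, against 7.45 and 8.7 TPM under IgG. Its groups did not overlap but it was not called (0.17 with an SE of 0.0786 and a limma adjusted p of 0.13).

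The regulators split. INSIG2 had 17.1 and 17.9 TPM under IgG with H2O2, against 13.4 and 8.69 TPM under IgG, so that both H2O2 libraries were above both IgG libraries although the IgG libraries differed from each other, with a mean of 11 ± 3.32 TPM (SD, n = 2). Its log2 fold change was 0.65 with an SE of 0.154 and a limma adjusted p of 0.00916. INSIG1, the INSIG gene that is itself a target of SREBP, had 14.5 and 16 TPM under IgG with H2O2, against 17.9 and 19.7 TPM under IgG. Its H2O2 libraries lay below, without overlap, and the log2 fold change was -0.28 with an SE of 0.0727 and a limma adjusted p of 0.0129. SCAP had 32.2 and 32.4 TPM under IgG with H2O2, against 36 and 42.7 TPM under IgG, and its log2 fold change was -0.27 with an SE of 0.0807 and a limma adjusted p of 0.0243. The genes of the SREBPs themselves were not called: SREBF1 had 79.3 and 73.7 TPM under IgG with H2O2, against 64.7 and 73 TPM under IgG, without overlap (0.15 with an SE of 0.103 and a limma adjusted p of 0.296). SREBF2 had 70.8 and 74.1 TPM under IgG with H2O2, against 62.7 and 70.8 TPM under IgG, with overlapping groups (0.12 with an SE of 0.0725 and a limma adjusted p of 0.245). STARD4, a cytosolic carrier of cholesterol, differed by 0.03 and was not called.

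As a sum, the sterol arm held 929 ± 41.6 TPM under IgG with H2O2 and 1103 ± 5.91 TPM under IgG (SD, n = 2 each), a difference of -15.8%. The fatty acid arm held 783 ± 28.5 TPM under IgG with H2O2 and 943 ± 50.5 TPM under IgG, a difference of -17%, which was -11% without FASN. Both sums were lower in every H2O2 library than in every IgG library, and the ratio of the fatty acid sum to the sterol sum overlapped between groups, at 0.842 ± 0.0071 under IgG with H2O2 and 0.854 ± 0.0412 under IgG. The summed regulators stood at 226 ± 1.43 TPM under IgG with H2O2 and 217 ± 13.9 TPM under IgG, with overlap. Of the 17 calls, 10 held in every alternative tried and 7 were lost when a single library was left out. Without IgG with H2O2 replicate 1 the limma adjusted p was 0.0628 for HMGCS1, 0.138 for MVK, 0.0706 for FDPS, 0.0982 for INSIG1 and 0.0917 for SCAP. Without IgG with H2O2 replicate 2 it was 0.0674 for MVK, 0.0625 for FASN, 0.0527 for INSIG2 and 0.0839 for SCAP, and without IgG replicate 2 it was 0.188 for MVK, 0.051 for FDPS, 0.0665 for FASN, 0.0849 for INSIG1 and 0.175 for SCAP. FDPS was also lost under quantile normalization (limma adjusted p = 0.0693).

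**Figure D2:**
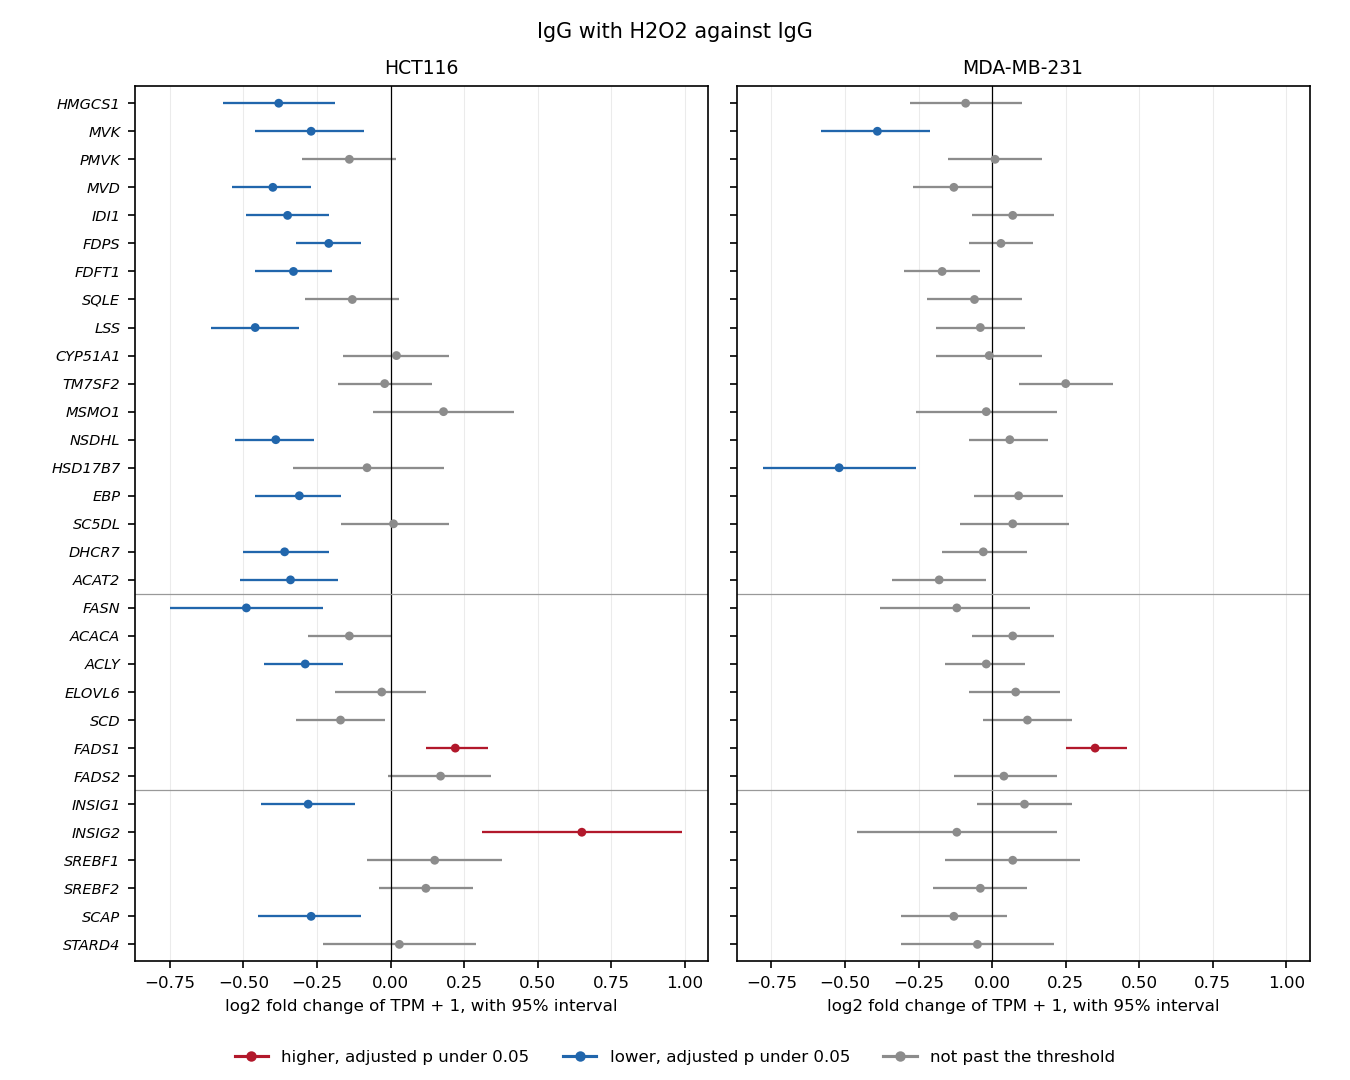
Log2 fold change of TPM + 1 for IgG with H2O2 against IgG in HCT116 (left) and MDA-MB-231 (right), 1 row per gene, with points for the estimate and lines for the 95% interval; blue is lower and red is higher at an adjusted p under 0.05, grey is not past the threshold. In HCT116, 15 genes are blue and 2 are red; in MDA-MB-231, 2 are blue and 1 is red.

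Genes that fell together in HCT116 were compared at the sequence just upstream of their start sites, since SREBPs are known to work at promoters beside the CCAAT-box factor NF-Y. The 250 bases before each RefSeq start site (GRCh38.p14) were read for 27 of the 31 genes, with 37 start sites, from a later build than the hg19 of the expression values and used for sequence alone; no window was used for FDFT1, SQLE, ACAT2 or FASN. Shown are 3 sterol enzymes and INSIG1, which fell, FADS1 and INSIG2, which rose, and SREBF2, whose window held the sterol element. Each window is 5′ to 3′ on the gene's strand, and capitals mark CCAAT on either strand (ATTGG in reverse), CACGTG, the E-box, or the sterol regulatory element written TCACNCCAC, searched on both strands. Of the marked matches, those within CCAATTGG of NSDHL overlap each other.
MVD, chr16:88663092-88663341, minus strand: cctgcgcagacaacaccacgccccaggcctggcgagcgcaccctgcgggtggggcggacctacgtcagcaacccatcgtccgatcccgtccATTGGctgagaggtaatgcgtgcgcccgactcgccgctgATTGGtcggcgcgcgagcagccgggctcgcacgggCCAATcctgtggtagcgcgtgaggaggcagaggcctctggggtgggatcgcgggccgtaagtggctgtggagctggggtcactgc
LSS, chr21:46228775-46229024, minus strand: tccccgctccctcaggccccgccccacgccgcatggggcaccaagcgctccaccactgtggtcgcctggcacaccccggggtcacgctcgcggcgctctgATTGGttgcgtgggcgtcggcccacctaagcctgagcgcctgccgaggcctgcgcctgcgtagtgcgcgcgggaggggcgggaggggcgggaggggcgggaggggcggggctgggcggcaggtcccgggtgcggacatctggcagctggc
NSDHL, chrX:152830813-152831062, plus strand: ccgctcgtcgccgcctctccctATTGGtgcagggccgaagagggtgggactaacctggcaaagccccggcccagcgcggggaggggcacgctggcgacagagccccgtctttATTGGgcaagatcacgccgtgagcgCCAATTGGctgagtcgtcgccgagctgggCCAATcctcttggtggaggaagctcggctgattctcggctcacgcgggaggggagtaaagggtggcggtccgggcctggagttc
INSIG1, chr7:155297628-155297877, plus strand: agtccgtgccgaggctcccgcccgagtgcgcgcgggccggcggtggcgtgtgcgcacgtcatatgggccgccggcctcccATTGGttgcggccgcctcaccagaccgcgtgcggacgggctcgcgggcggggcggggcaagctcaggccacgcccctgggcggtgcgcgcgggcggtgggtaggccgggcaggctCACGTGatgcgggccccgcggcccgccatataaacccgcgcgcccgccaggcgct
SREBF2, chr22:41832855-41833104, plus strand: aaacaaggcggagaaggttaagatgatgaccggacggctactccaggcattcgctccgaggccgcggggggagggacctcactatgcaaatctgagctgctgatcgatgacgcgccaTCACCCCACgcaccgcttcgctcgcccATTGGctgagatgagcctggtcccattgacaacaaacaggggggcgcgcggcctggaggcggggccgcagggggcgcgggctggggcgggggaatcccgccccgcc
FADS1, chr11:61817004-61817253, minus strand: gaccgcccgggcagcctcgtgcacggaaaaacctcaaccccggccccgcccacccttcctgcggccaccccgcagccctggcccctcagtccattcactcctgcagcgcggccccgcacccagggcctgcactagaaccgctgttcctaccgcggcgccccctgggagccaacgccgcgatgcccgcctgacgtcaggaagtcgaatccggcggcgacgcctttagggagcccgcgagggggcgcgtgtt
INSIG2, chr2:118088221-118088470, plus strand: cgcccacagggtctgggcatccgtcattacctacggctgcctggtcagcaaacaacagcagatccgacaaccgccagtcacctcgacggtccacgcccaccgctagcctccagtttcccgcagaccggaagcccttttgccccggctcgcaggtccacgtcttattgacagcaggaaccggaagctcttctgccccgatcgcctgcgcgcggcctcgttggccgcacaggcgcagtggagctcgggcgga
The windows of MVD, LSS, NSDHL and INSIG1, all lower with H2O2, carry 3, 1, 5 and 1 CCAAT matches, and those of FADS1 and INSIG2, both higher, carry 0. A second INSIG2 window, from another start site, also carries 0. Among the 12 lower genes with a window, 11 had at least 1 CCAAT match at a start site, the exception being SCAP. Among the 2 higher genes 0 had one, and among the 13 uncalled genes 8 did. A gene with several windows counts here if any of them matches, and HMGCS1, IDI1 and DHCR7 each also have a window without a match. No share of all genes counted in this way is given, and the higher genes are only 2. Counted by window, 23 of 37 (62.2%) held the 5 letters, against 32% of 35116 windows of the same length over all genes. The E-box stood in 4 of 37 windows (10.8%), against 6.34% of all windows, among them that of INSIG1 at position -55 from the start site. These 4 windows belong to 3 genes, since overlapping windows of SC5DL hold the same site. The sterol element matched 1 of 37 windows (2.7%), against 0.883% of all, at position -133 of SREBF2, the gene of an SREBP. These matches describe letters in a window and not binding in these cells.

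In MDA-MB-231 the same exposure left most of the pathway uncalled. Of the 31 genes, 2 fell (6.45%) and 1 rose (3.23%), against 1.36% lower and 1.3% higher among all genes. After rescaling by median-of-ratios, the calls over all genes split into 154 higher and 279 lower, against 181 higher and 190 lower without it, and 3 members were called under both. MVK had 17.3 and 17.6 TPM under IgG with H2O2, against 23 and 23.5 TPM under IgG. Its groups stood apart, with a log2 fold change of -0.39 with an SE of 0.0842 and a limma adjusted p of 0.0354. HSD17B7 had 7.17 and 8.92 TPM under IgG with H2O2, against 13.3 and 10.7 TPM under IgG, also without overlap (-0.52 with an SE of 0.117 and a limma adjusted p of 0.043). FADS1 rose here too: it had 81.8 and 81.8 TPM under IgG with H2O2, against 63.2 and 64.5 TPM under IgG, and the log2 fold change was 0.35 with an SE of 0.0478 and a limma adjusted p of 0.00286. FADS1 was thus called higher and MVK lower in both lines.

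Among uncalled genes of MDA-MB-231, those of smallest p on the higher side were TM7SF2 at 0.25 (limma adjusted p = 0.106) and SCD at 0.12 (limma adjusted p = 0.415). On the lower side they were FDFT1 at -0.17 (limma adjusted p = 0.17), ACAT2 at -0.18 (limma adjusted p = 0.253) and MVD at -0.13 (limma adjusted p = 0.31), each with a smaller p than SCD. The log2 fold changes of the 6 regulators lay between -0.13 and 0.11, and 0 of 6 were called at the limma threshold or at an unadjusted p under 0.05. INSIG1 had 44.1 and 42.5 TPM under IgG with H2O2, against 38.3 and 42 TPM under IgG (0.11 with an SE of 0.0727 and a limma adjusted p of 0.514), without overlap but short of a call. SREBF1 had 17.7 and 19.4 TPM under IgG with H2O2, against 15.8 and 19.6 TPM under IgG (0.07 with an SE of 0.103 and a limma adjusted p of 0.802), and SREBF2 had 26.4 and 27.8 TPM under IgG with H2O2, against 26.2 and 29.6 TPM under IgG (-0.04 with an SE of 0.0725 and a limma adjusted p of 0.861); both overlapped between groups. The sterol sum was 1183 ± 2.95 TPM under IgG with H2O2 and 1205 ± 14.2 TPM under IgG (SD, n = 2 each), a difference of -1.79% without overlap, and the fatty acid sum was 596 ± 7.5 TPM under IgG with H2O2 and 572 ± 28.2 TPM under IgG. The median log2 fold change was -0.03 in the sterol arm, 0.07 in the fatty acid arm and 0.03 over all genes. The call of FADS1 held in every alternative tried, while that of MVK was lost in 11 of 20 and that of HSD17B7 in 17 of 20. Without an IgG with H2O2 library of MDA-MB-231, replicate 1 or 2, the limma adjusted p was 0.193 or 0.179 for MVK and 0.287 or 0.0569 for HSD17B7, and without an IgG library it was 0.132 or 0.124 for MVK; for HSD17B7 it was 0.242 without IgG replicate 1. The count of called members, 3 with all libraries, was 1 without either IgG with H2O2 library of either line, without MDA-MB-231 IgG replicate 1 or without either anti-Hsp60N with H2O2 library of HCT116, and 2 without any other library.

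**Figure D3:**
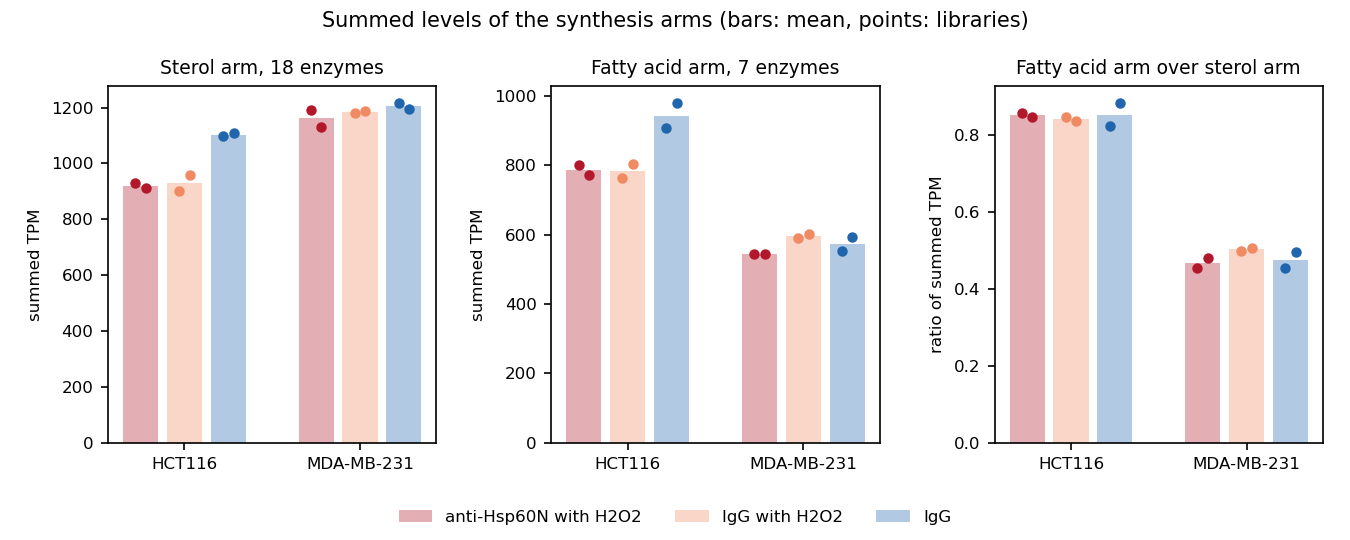
Summed TPM of the 18 sterol enzymes and of the 7 fatty acid enzymes, and the ratio of the fatty acid sum to the sterol sum, in the 3 groups of each line; bars are means and points are the 2 libraries. In HCT116 both sums lie lower in the 2 groups with H2O2 than under IgG, and in MDA-MB-231 the sterol sums lie between 1132 and 1215 TPM in all groups.

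Whether the lines differed in their change with H2O2 was tested directly, as the HCT116 change minus the MDA-MB-231 change. Of the 31 genes, 7 were lower (22.6%) and 1 was higher (3.23%) by this test, against 9.72% lower and 7.65% higher among all genes. The 7 lower genes were 6 sterol enzymes and INSIG1. For NSDHL the log2 fold change was -0.39 in HCT116 and 0.06 in MDA-MB-231, a difference of -0.45 with an SE of 0.0862 and a limma adjusted p of 0.00681. For LSS it was -0.46 in HCT116 and -0.04 in MDA-MB-231, and the difference was -0.42 with an SE of 0.0952 and a limma adjusted p of 0.0144. IDI1, which fell in HCT116, had 73.4 and 67.6 TPM under IgG with H2O2, against 66.5 and 67.8 TPM under IgG in MDA-MB-231, with overlapping groups. Its difference between lines was -0.42 with an SE of 0.0897 and a limma adjusted p of 0.0115. EBP differed between lines by -0.41 (limma adjusted p = 0.0155), DHCR7 by -0.33 (limma adjusted p = 0.0346) and FDPS by -0.23 (limma adjusted p = 0.0452). All 3 belong to the sterol arm and were uncalled in MDA-MB-231.

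The INSIG genes differed between lines in opposite directions. For INSIG1, lower with H2O2 in HCT116, the difference was -0.39 with an SE of 0.103 and a limma adjusted p of 0.027. INSIG2 had 21.4 and 18.9 TPM under IgG with H2O2, against 22 and 21.9 TPM under IgG in MDA-MB-231, where the H2O2 libraries lay below without overlap and it was not called. The INSIG2 difference was 0.77 with an SE of 0.218 and a limma adjusted p of 0.0358. MVD (-0.27, limma adjusted p = 0.0524), ACLY (-0.27, limma adjusted p = 0.0514) and HSD17B7 (0.44, limma adjusted p = 0.0913) did not pass. SREBF2 differed by 0.16 (95% interval -0.07 to 0.38) and SREBF1 by 0.08 (95% interval -0.24 to 0.40). The call of NSDHL held in every one of 19 alternatives. That of FDPS was lost in 14 of 19, those of DHCR7 and INSIG2 in 9 each, INSIG1 in 5, EBP in 3, and IDI1 and LSS in 1 each. Of the 31 genes, 2 were called without MDA-MB-231 IgG with H2O2 replicate 1, 3 without its replicate 2, 3 without HCT116 IgG with H2O2 replicate 1, 4 without HCT116 IgG replicate 2 and 5 without MDA-MB-231 IgG replicate 1.

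The next question was what anti-Hsp60N added to H2O2. In both lines 0 of 31 genes were called by limma between anti-Hsp60N with H2O2 and IgG with H2O2, where 0.0215% of all genes (3 genes) were called in HCT116 and 0.0143% (2 genes) in MDA-MB-231. At an unadjusted p under 0.05 there were 1 member in HCT116 and 5 in MDA-MB-231. The share of all genes under that unadjusted threshold is not given, so these counts do not set the members apart from other genes. INSIG1 differed by 0.07, SREBF1 by -0.06 and SREBF2 by -0.01 in HCT116, and by -0.08, -0.08 and -0.12 in MDA-MB-231. The 95% intervals of the log2 fold changes reached from -0.38 to 0.43 over the members in HCT116 and from -0.46 to 0.47 in MDA-MB-231, so a change inside its own interval is compatible with these libraries for each gene.

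In HCT116, MVD had 51.3 and 57.1 TPM under anti-Hsp60N with H2O2, against 66.2 and 62.4 TPM under IgG with H2O2. The libraries of the 2 groups did not overlap, and MVD was the member with an unadjusted p under 0.05 (-0.24 with an SE of 0.0607 and a limma adjusted p of 0.828). MVK differed by -0.14 and NSDHL by -0.09, while IDI1 differed by 0.10, FADS1 by 0.07 and CYP51A1 by 0.12; the limma adjusted p was at least 0.828 for every member. In MDA-MB-231, FADS1 had 73.5 and 71.7 TPM under anti-Hsp60N with H2O2, against 81.8 and 81.8 TPM under IgG with H2O2. ACACA had 11.6 and 11.5 TPM under anti-Hsp60N with H2O2, against 13.4 and 13.8 TPM under IgG with H2O2. SCD had 67 and 65.3 TPM under anti-Hsp60N with H2O2, against 75.8 and 78.6 TPM under IgG with H2O2. For these 3 fatty acid enzymes both anti-Hsp60N libraries lay below both IgG with H2O2 libraries, but they were not called: the log2 fold change was -0.17 with an SE of 0.0478 and a limma adjusted p of 0.279, for FADS1, -0.22 with an SE of 0.0633 and a limma adjusted p of 0.279, for ACACA, and -0.22 with an SE of 0.0678 and a limma adjusted p of 0.284, for SCD. ELOVL6 stood at -0.19 (limma adjusted p = 0.314). Groups did not overlap for 17 of the 31 members in MDA-MB-231 and for 7 of 31 in HCT116, while 0 were called. The share of all genes without overlap is not given, so these counts do not set the members apart from other genes. In MDA-MB-231, MVD stood on the other side of 0, with 26.8 and 27.5 TPM under anti-Hsp60N with H2O2, against 23.1 and 23.9 TPM under IgG with H2O2. Its log2 fold change was 0.20 with an SE of 0.0607 and a limma adjusted p of 0.284. MVK differed by 0.17 and HSD17B7 by 0.22, and neither was called.

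The median over the fatty acid arm in MDA-MB-231 was -0.17, beside -0.02 over all genes, and its summed level was 545 ± 0.813 TPM under anti-Hsp60N with H2O2 and 596 ± 7.5 TPM under IgG with H2O2 (SD, n = 2 each), a difference of -8.64% without overlap. In HCT116 the same sum overlapped, at 786 ± 18.5 TPM under anti-Hsp60N with H2O2 and 783 ± 28.5 TPM under IgG with H2O2. The sterol sums overlapped in both lines, at 921 ± 14 TPM under anti-Hsp60N with H2O2 and 929 ± 41.6 TPM under IgG with H2O2 in HCT116, and at 1162 ± 42.8 TPM under anti-Hsp60N with H2O2 and 1183 ± 2.95 TPM under IgG with H2O2 in MDA-MB-231. Tested as a difference between lines, 0 of 31 members were called by limma, against 0.0287% of all genes (4 genes). At an unadjusted p under 0.05 there were 5 members, again without a share of all genes to set beside them. These were MVD (-0.45), MVK (-0.32), ACACA (0.21), SCD (0.29) and FADS1 (0.24), with a limma adjusted p of 0.305 for MVD.

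**Figure D4:**
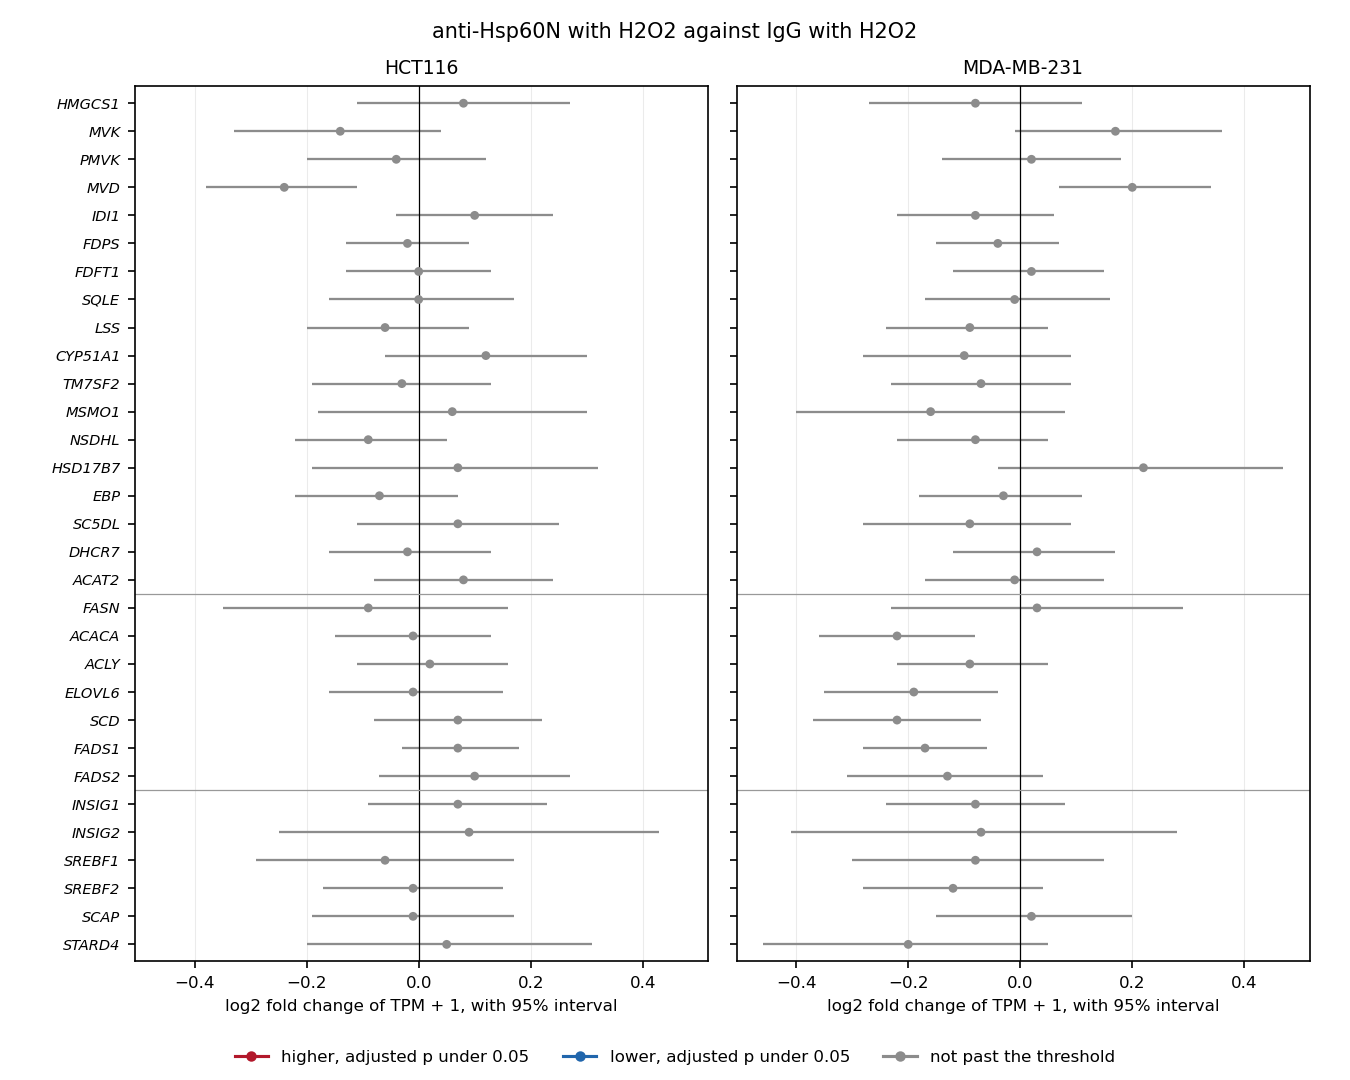
Log2 fold change of TPM + 1 under H2O2, anti-Hsp60N over IgG, in HCT116 (left) and MDA-MB-231 (right), 1 row per gene, with points for the estimate and lines for the 95% interval. All points are grey, since 0 of 31 genes passed the threshold in either line; MVD lies at -0.24 in HCT116 and 0.20 in MDA-MB-231.

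Anti-Hsp60N with H2O2 was also set against IgG. This comparison shares its IgG libraries with that of H2O2 alone, so the values stand side by side and are not a second observation. In HCT116, 15 genes were lower (48.4%) and 3 higher (9.68%), against 17.5% lower and 16.8% higher among all genes. MVD changed by -0.65 with anti-Hsp60N and H2O2, beside -0.40 with IgG and H2O2. LSS changed by -0.52 beside -0.46, NSDHL by -0.48 beside -0.39, EBP by -0.39 beside -0.31, DHCR7 by -0.38 beside -0.36 and FDFT1 by -0.33 beside -0.33, in the same order. MVK changed by -0.42 beside -0.27, SCAP by -0.29 beside -0.27 and FDPS by -0.22 beside -0.21. Other lower genes changed less with anti-Hsp60N: HMGCS1 by -0.30 beside -0.38, IDI1 by -0.25 beside -0.35 and ACAT2 by -0.27 beside -0.34. So did ACLY, by -0.27 beside -0.29, and INSIG1, by -0.22 beside -0.28. FASN had 205 and 212 TPM under anti-Hsp60N with H2O2, against 290.3 and 337 TPM under IgG, a log2 fold change of -0.58 with an SE of 0.116 and a limma adjusted p of 0.00335. The 3 higher genes were INSIG2, which had 20.6 and 17 TPM under anti-Hsp60N with H2O2, against 13.4 and 8.69 TPM under IgG (0.74 with an SE of 0.154 and a limma adjusted p of 0.00429), FADS1 (0.29 with an SE of 0.0478 and a limma adjusted p of 0.00106) and FADS2. FADS2 had 9.29 and 10.5 TPM under anti-Hsp60N with H2O2, against 7.45 and 8.7 TPM under IgG. Its groups stood apart (0.27 with an SE of 0.0786 and a limma adjusted p of 0.0238), but the limma adjusted p was 0.181 without anti-Hsp60N with H2O2 replicate 2 and 0.152 without IgG replicate 1. Without that anti-Hsp60N library 11 of the 31 genes were called in all, among those lost being HMGCS1 (limma adjusted p = 0.137), IDI1 (limma adjusted p = 0.0687), ACAT2 (limma adjusted p = 0.103), ACLY (limma adjusted p = 0.0508), INSIG1 (limma adjusted p = 0.185) and SCAP (limma adjusted p = 0.0773). SREBF1 differed by 0.09 and SREBF2 by 0.10, and neither was called.

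In MDA-MB-231, 0 of 31 genes were called by limma between anti-Hsp60N with H2O2 and IgG, where 1.5% of all genes were higher and 1.9% were lower. At an unadjusted p under 0.05 there were 7 members, with no share of all genes given for that threshold. FADS1 came nearest, with 73.5 and 71.7 TPM under anti-Hsp60N with H2O2, against 63.2 and 64.5 TPM under IgG. Both anti-Hsp60N libraries lay above both IgG libraries (0.18 with an SE of 0.0478 and a limma adjusted p of 0.0681). MVK stood at -0.22 (limma adjusted p = 0.19) and HSD17B7 at -0.30 (limma adjusted p = 0.191). INSIG1 differed by 0.03, SREBF1 by 0.00 and SREBF2 by -0.16.

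The lines themselves differed in the RNA level of most members, as they did for most genes, with line and medium not to be told apart. Under IgG, HCT116 against MDA-MB-231, 13 genes were higher (41.9%) and 15 lower (48.4%), against 45.5% higher and 37.3% lower among all genes, so that the share called was near that of all genes. The median of all genes was shifted by 0.11, and by -0.01 after median-of-ratios scaling. The values given here are not corrected for it, and 0 of the 28 calls changed sign under the alternatives run. HCT116 was higher for the fatty acid enzymes FASN, SCD and ACACA, and for SREBF1 and SREBF2. MDA-MB-231 was higher for FADS1, FADS2, ELOVL6 and INSIG1.

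FADS2 had 7.45 and 8.7 TPM in HCT116, against 84.3 and 86.4 TPM in MDA-MB-231. FADS1 had 33.1 and 33.2 TPM in HCT116, against 63.2 and 64.5 TPM in MDA-MB-231. Both polyunsaturated desaturases were lower in HCT116 without overlap, with a log2 difference of -3.25 with an SE of 0.0786 and a limma adjusted p of 1.47e-11 for FADS2, and -0.92 with an SE of 0.0478 and a limma adjusted p of 8.23e-09 for FADS1. FASN had 290.3 and 337 TPM in HCT116, against 53.4 and 68 TPM in MDA-MB-231. SCD had 300.0 and 299 TPM in HCT116, against 68.8 and 73.1 TPM in MDA-MB-231. These were higher in every HCT116 library, FASN by 2.36 with an SE of 0.116 and a limma adjusted p of 5.22e-09, and SCD by 2.06 with an SE of 0.0678 and a limma adjusted p of 1.75e-10. ACACA had 42 and 46.1 TPM in HCT116, against 12.5 and 13.5 TPM in MDA-MB-231, a log2 fold change of 1.69 with an SE of 0.0633 and a limma adjusted p of 5.28e-10. ELOVL6 had 35.8 and 35.1 TPM in HCT116, against 79.4 and 91.2 TPM in MDA-MB-231, a log2 fold change of -1.24 with an SE of 0.071 and a limma adjusted p of 1.97e-08. ACLY, which feeds both arms, was not called (0.11 with an SE of 0.0606 and a limma adjusted p of 0.112).

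In the sterol arm, 7 of 18 enzymes were higher and 10 were lower in HCT116. MVD had 86 and 84.6 TPM in HCT116, against 26.4 and 25.3 TPM in MDA-MB-231. SQLE had 56.8 and 51.2 TPM in HCT116, against 17.9 and 20.0 TPM in MDA-MB-231. Both were higher in HCT116, MVD by 1.69 with an SE of 0.0607 and a limma adjusted p of 3.75e-10, and SQLE by 1.46 with an SE of 0.0734 and a limma adjusted p of 6.45e-09. HMGCS1 was higher by 1.47 and TM7SF2 by 1.25. ACAT2 had 59.9 and 54 TPM in HCT116, against 146 and 141 TPM in MDA-MB-231. LSS had 27.3 and 31.6 TPM in HCT116, against 52.7 and 55.5 TPM in MDA-MB-231. Both were lower in HCT116, with a log2 difference of -1.32 with an SE of 0.0733 and a limma adjusted p of 1.55e-08 for ACAT2, and -0.86 with an SE of 0.0673 and a limma adjusted p of 3.02e-07 for LSS. Of the small differences, those of FDFT1 (0.25), HSD17B7 (0.33) and SCAP (0.20) lost their call after median-of-ratios scaling, with limma adjusted p of 0.0955, 0.144 and 0.347. Of the 10 lower calls, 6 were lost when a library was left out: without HCT116 IgG replicate 1 the limma adjusted p was 0.173 for MVK, 0.181 for MSMO1, 0.076 for SC5DL and 0.0811 for DHCR7, and without HCT116 IgG replicate 2 it was 0.0655 for PMVK, 0.0528 for IDI1, 0.0536 for MSMO1 and 0.0789 for SC5DL. Without MDA-MB-231 IgG replicate 1 it was 0.0538 for MVK and 0.126 for MSMO1, and without replicate 2 it was 0.0804 for MVK, 0.113 for MSMO1 and 0.195 for SC5DL. MSMO1 was lost in 10 of 19 alternatives.

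Among the regulators, SREBF1 had 64.7 and 73 TPM in HCT116, against 15.8 and 19.6 TPM in MDA-MB-231, and SREBF2 had 62.7 and 70.8 TPM in HCT116, against 26.2 and 29.6 TPM in MDA-MB-231. Both SREBP genes were higher in HCT116, SREBF1 by 1.91 with an SE of 0.103 and a limma adjusted p of 1.22e-08, and SREBF2 by 1.23 with an SE of 0.0725 and a limma adjusted p of 2.52e-08. INSIG1 had 17.9 and 19.7 TPM in HCT116, against 38.3 and 42 TPM in MDA-MB-231, a log2 difference of -1.06 with an SE of 0.0727 and a limma adjusted p of 9.59e-08. INSIG2 was lower too (-0.96). Summed over the arm, sterol enzymes held 1103 ± 5.91 TPM for HCT116 and 1205 ± 14.2 TPM for MDA-MB-231 (SD, n = 2 each), and fatty acid enzymes 943 ± 50.5 TPM for HCT116 and 572 ± 28.2 TPM for MDA-MB-231. The fatty acid sum was 64.7% higher in HCT116, and 22.9% higher without FASN. The sum without FASN still holds SCD, itself higher in HCT116 by 2.06, and a sum without both genes is not given. The higher sum does not describe the arm gene by gene: of its 7 enzymes, 3 were called higher and 3 lower. The median log2 difference of the arm was 0.11, the same as over all genes. The ratio of the fatty acid sum to the sterol sum was 0.854 ± 0.0412 in HCT116 and 0.475 ± 0.029 in MDA-MB-231.

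**Figure D5:**
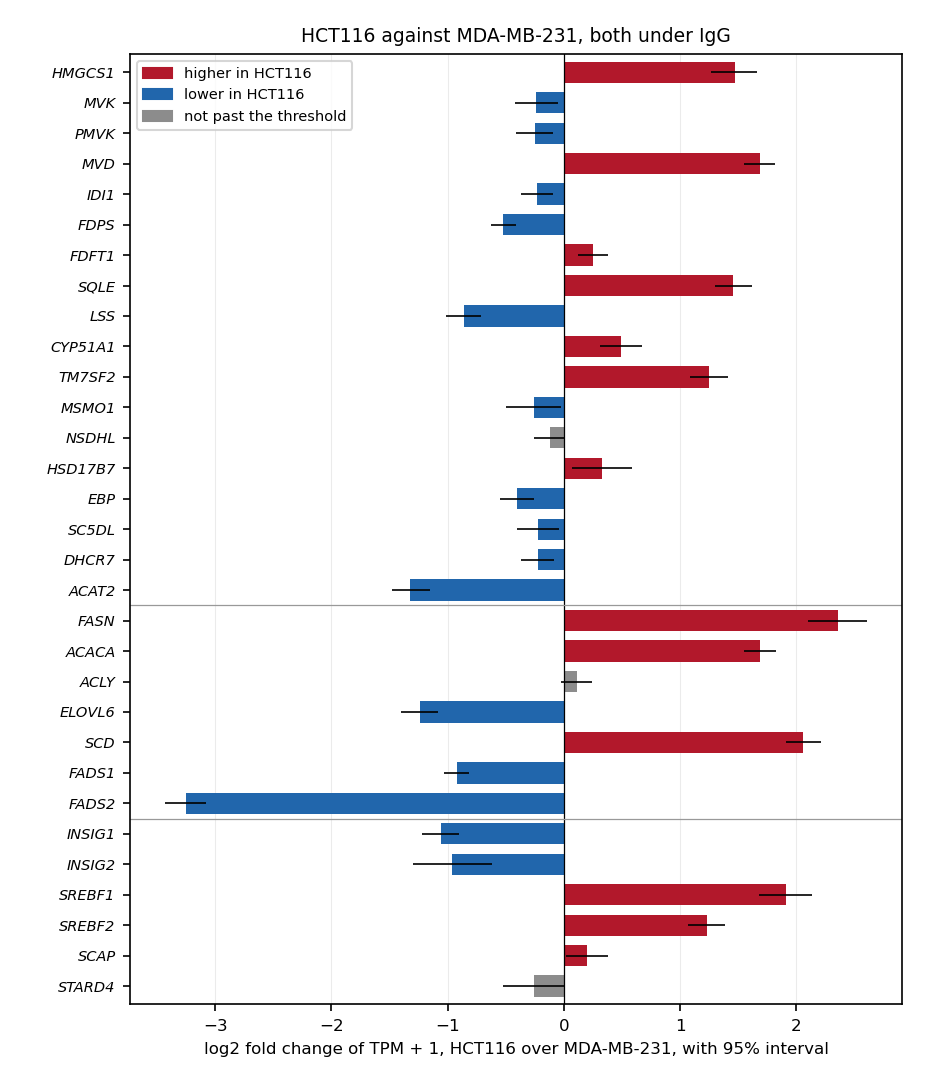
Log2 difference of TPM + 1, HCT116 against MDA-MB-231 under IgG, for each of the 31 genes, with bars for the estimate and lines for the 95% interval. FASN (2.36) and SCD (2.06) lie farthest to the side of HCT116 and FADS2 (-3.25) farthest to the side of MDA-MB-231.

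Genes around the pathway were counted in 6 lists, beside 15.4% higher and 17.5% lower among all genes tested in HCT116. With IgG and H2O2 against IgG in HCT116, 4 of 16 other sterol and lipid genes of SREBP rose and 6 fell. NPC1, which exports cholesterol from lysosomes, had 38.2 and 40.9 TPM under IgG with H2O2, against 20.5 and 22.4 TPM under IgG (0.85 with an SE of 0.0664 and a limma adjusted p of 8.47e-06). SLC25A1, the mitochondrial citrate carrier that supplies ACLY, changed by -0.30. Among 18 genes of fatty acid oxidation 0 rose and 6 fell, with ECI2 at -0.43, CPT1A, the gate to mitochondrial oxidation in many tissues, at -0.38 and ETFB, an electron carrier, at -0.26. Among 12 genes listed as kinases that act on acetyl-CoA carboxylase or SREBP activity 4 rose and 4 fell: PRKAB2, a subunit of AMP-activated kinase, had 20.6 and 19.9 TPM under IgG with H2O2, against 11.3 and 10.7 TPM under IgG (0.83 with an SE of 0.072 and a limma adjusted p of 2.07e-05), PRKAB1, another such subunit, changed by 0.38 and MTOR by -0.32. In the machinery that processes and degrades SREBP, 3 of 19 rose, among them RNF139 (0.31) and PAQR3 (0.28), and 4 fell, UBE2G2 (-0.17), SEC24C (-0.38), SEC23A (-0.27) and SAR1A (-0.21), shares near those of all genes. The last 3 belong to the COPII coat that carries SCAP to the Golgi, of which SEC24B (0.03), SEC24D (0.04) and SAR1B (-0.04) were not called. Of 14 genes of sterol efflux, esterification and LXR, 2 rose and 2 fell, including the efflux pump ABCA1 (0.41) and LPCAT3 (-0.38), which remodels phospholipids. ABCA1 was near the floor in HCT116, at 0.58 and 0.71 TPM under IgG with H2O2, against 0.2 and 0.28 TPM under IgG. It stood under 1 TPM in every HCT116 library and passed the filter only through MDA-MB-231. Of 13 genes of the non-sterol branches of mevalonate, 2 rose and 1 fell, FNTA (0.33) and RABGGTB (0.20), which encode subunits of prenyl transferases, and ICMT (-0.36), which methylates prenylated proteins.

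In MDA-MB-231, 0 of the genes on these lists were called by limma for H2O2. There were 12 list entries at an unadjusted p under 0.05, a threshold for which the share of all genes is not given. By the test between lines of the H2O2 change, NPC1 (0.81) and PRKAB2 (0.70) had a higher log2 fold change in HCT116. It was lower in HCT116 for 5 of 16 other sterol and lipid genes, among them GPAM (-0.64), TMEM97 (-0.59), FABP5 (-0.35) and SLC25A1 (-0.30), and for 4 of 19 genes of SREBP processing, SEC24C (-0.32), ERLIN1 (-0.29), SAR1A (-0.28) and UBE2G2 (-0.26). The other lower calls were ECI2 (-0.37) and ETFA (-0.21) of fatty acid oxidation, AKT1 (-0.37) and MTOR (-0.36) of the kinases, ICMT (-0.48) and LPCAT3 (-0.40). Among all genes tested, 7.65% were higher and 9.72% lower by this test. With anti-Hsp60N and H2O2 against IgG in HCT116, which shares the IgG libraries, NPC1 changed by 0.85, SLC25A1 by -0.41, PRKAB2 by 0.84, ECI2 by -0.44 and SLC25A20, the carnitine carrier, by -0.50. In MDA-MB-231 that comparison called 1 gene of the lists, SEC24D (-0.26), another COPII part.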

How the data were processed

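The authors deposited 1 table of TPM values, which the labels tie to 12 libraries by column name; unmatched columns numbered 0 and identical column pairs 0. Per the submitters' processing notes, the tools were STAR, RSEM and bcl2fastq 2.20 and the genome was hg19; settings and strandedness were not given in the sources used. Every column totals 1000000 TPM, so depth cannot be recovered and no counting interval is given. Values were taken as log2(TPM + 1), genes with at least 1 TPM in at least 2 of 12 libraries were kept, and 6 group means were fitted in limma 3.58.1 under R 4.3.3, with trended variance, moderated tests and Benjamini-Hochberg adjustment over 13956 genes. The model was tested on simulated data. The members and lists were chosen with earlier results of these data known. Genes named with full statistics were, per comparison, up to 6 called members of smallest p in each direction, filled to 3 with uncalled members of smallest p, and INSIG1, SREBF1 and SREBF2; of neighbouring lists, up to 3 called genes of smallest p, of which some are not reported here. Other members, such as FASN, ACLY, SCAP and MSMO1, were described in addition, after their values were seen. Of 92 listed neighbours, 91 were found and SREBF2-AS1 was not analysed here. Promoter sequence came from RefSeq (GRCh38.p14). Alternatives were another pseudocount (0.1), filters, scalings, no variance trend, a replicate block, each line alone and each library left out.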

Additional observations from a re-analysis of the deposited data

Results flagged for a closer look

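The H2O2 change of 8 members differed between the lines by the limma test of that difference (HCT116 minus MDA-MB-231). For INSIG2 it was 0.77 and for INSIG1 -0.39. Among sterol enzymes it was -0.45 for NSDHL, -0.42 for LSS, -0.42 for IDI1, -0.41 for EBP, -0.33 for DHCR7 and -0.23 for FDPS. Of 19 alternatives, the call of FDPS was lost in 14 (limma adjusted p = 0.108 under median-of-ratios scaling and 0.223 under quantile normalization), those of DHCR7 and INSIG2 in 9 each, INSIG1 in 5, EBP in 3, and LSS and IDI1 in 1 each, while that of NSDHL was lost in 0. The medium differs with the line, so medium and line cannot be told apart here.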

How the results depend on the processing

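With 2 libraries a group, single calls rest on few values, and depth is unknown because TPM keeps none. Over the single-gene values under all alternatives, 5212 kept their direction and side of the threshold, 136 calls were lost, 33 were gained, 137 uncalled values changed sign and 0 called values did. For H2O2 in MDA-MB-231 the count of called members was 1 without the low-value filter, without the variance trend and with the replicate block, against 3. The block changed no other count of called members by more than 1.5 times; deviations of same-numbered libraries within a line correlated at -0.127 to 0.164, and no label says that the numbers pair them. A crossed block, chosen after seeing the data, gave 19 called members for H2O2 in HCT116, against 17. For the difference between lines the count was 5 without the filter and without the trend, against 8. Under quantile normalization the sterol median was -0.24 for H2O2 in HCT116, the medians of the H2O2 difference between lines were -0.13 (sterol) and -0.15 (fatty acid), and those of the antibody difference -0.03 and 0.15. Without it these were -0.29, then -0.20 and -0.20, then 0.01 and 0.21. Under median-of-ratios scaling the medians between lines under IgG were -0.35 (sterol) and -0.02 (fatty acid), against -0.22 and 0.11 without it, so the fatty acid median changed sign. The cause was not tested. With each library left out, where the remaining library of the group is assumed to vary like the other groups, the count of called members ranged from 13 to 17 for H2O2 in HCT116, 1 to 2 in MDA-MB-231, 11 to 19 for anti-Hsp60N with H2O2 against IgG in HCT116, 2 to 8 for the H2O2 difference and 22 to 29 between lines, and was 0 to 0 in the other comparisons. Sterol and fatty acid medians then ranged from -0.30 to -0.21 and -0.16 to -0.06 for H2O2 in HCT116, -0.05 to -0.01 and 0.02 to 0.12 in MDA-MB-231, -0.05 to 0.05 and -0.03 to 0.07 for the antibody under H2O2 in HCT116, -0.06 to -0.01 and -0.17 to -0.16 in MDA-MB-231, -0.29 to -0.22 and -0.15 to -0.03 for the antibody with H2O2 against IgG in HCT116, -0.12 to -0.01 and -0.14 to -0.06 in MDA-MB-231, -0.24 to -0.17 and -0.27 to -0.14 for the H2O2 difference, -0.01 to 0.06 and 0.19 to 0.23 for the antibody difference, and -0.24 to -0.15 and 0.04 to 0.18 between lines.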

Other observations

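Around the pathway, the lines also differed under IgG, HCT116 against MDA-MB-231, and the 17 genes named here, up to 3 of smallest p from each list, were called by limma. In sterol and lipid supply, GPAM, which starts triglyceride synthesis, differed by 2.35, FABP5, a fatty acid binding protein, by 2.02 and NPC2, a lysosomal cholesterol carrier, by -1.75. NCEH1, a cholesterol ester hydrolase, differed by -2.79 and SOAT1, which esterifies cholesterol, by -1.61. RNF139, a ubiquitin ligase of the endoplasmic reticulum, stood at 2.05, MBTPS1, the site-1 protease that cuts SREBP, at 0.98 and VCP at -0.77. In fatty acid oxidation the values were -1.65 for ACAA2, -1.07 for ECI2 and 1.26 for ETFB. LPIN1 stood at -1.61, PRKAG2 at -1.31 and MTOR at 0.96, and the prenyl transferase subunits FNTB, PGGT1B and RABGGTB at 1.62, 0.87 and 0.56.

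HSPD1, the gene of Hsp60, had 1780.1 and 1775 TPM under anti-Hsp60N with H2O2, 1625 and 1749 TPM under IgG with H2O2 and 1965 and 1861 TPM under IgG in HCT116, and 673 and 658 TPM under anti-Hsp60N with H2O2, 709 and 687 TPM under IgG with H2O2 and 633 and 666 TPM under IgG in MDA-MB-231. With IgG and H2O2 against IgG its log2 fold change was -0.18 with an SE of 0.0477 and a limma adjusted p of 0.0147 in HCT116, and 0.10 with an SE of 0.0477 and a limma adjusted p of 0.308 in MDA-MB-231. By the test between lines the H2O2 change differed by -0.28 with an SE of 0.0675 and a limma adjusted p of 0.0172. An antibody acts on protein, so this RNA level does not check the treatment label.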
